A study of Bos taurus with 8 samples.

Results

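The 10 genes examined as a group were 6 apolipoproteins (APOA1, APOA2, APOA4, APOB, APOE and APOM), the lipid exporters ABCA1 and ABCG1, the lipoprotein assembly factor MTTP, and TTR, a carrier of thyroxine and retinol. They were chosen by name from the 32634 genes with counts, and the group was proposed because APOA1 was higher in feeder-free bovine embryonic stem cells (bESCs) than on feeders, so that the APOA1 change is given as a description without a test. All 10 genes were found in the count table. The counts came from 4 bESC lines labelled XX and lettered A, C, D or E, each derived from a whole in vitro-produced embryo and each serving as 1 biological replicate. Every line was sequenced on MEF (irradiated mouse embryonic fibroblasts, a feeder layer) at passage 15 to 17 and in feeder-free conditions on vitronectin at passage 20 to 22, both in 5% O2, so that each condition had 4 libraries of the 8. All libraries carry the same medium code, whereas the methods describe Activin A as an addition for feeder-free culture, so matrix, feeder cells, passage and possibly medium changed together and cannot be told apart. The paper also refers to sequencing batches and states that it made no further correction for them. Batch was not examined here. Per the methods, bovine-aligned reads of MEF sequenced alone were subtracted from the libraries grown on MEF. This step also differs between the conditions, and its effect on the values below was not tested.

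Apolipoproteins are the protein part of lipoprotein particles. APOA1 is the main protein of high-density lipoprotein and takes up cholesterol and phospholipid that ABCA1 moves out of cells, while ABCG1 passes cholesterol on to particles already formed. APOB is the backbone of the larger particles that liver, intestine and yolk sac endoderm secrete, and MTTP loads lipid onto it. TTR and several apolipoproteins are classic products of liver and of visceral endoderm, the yolk sac lineage of the early embryo.

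Total counts per library ranged from 44264579 to 54293790 on MEF and from 49660128 to 102347485 in feeder-free conditions, where line D held the largest total and the other lines had at most 51316434. The labelled cell type was checked on its markers, and the 7 pluripotency genes examined (POU5F1, SOX2, NANOG, LIN28B, SALL4, OTX2 and DNMT3B) were detected and summed to 4672 to 5358 CPM (counts scaled to a common library size) on MEF and 4082 to 4708 CPM in feeder-free conditions. Of these 7, 6 had a log2 fold change below 0, with a median of -0.35. By edgeR 0 were called and 5 of the 7 had an unadjusted P-value under 0.05, beside 21.6% of all genes tested. OTX2 was called as lower when libraries were paired by line, as were 4.53% of all genes. Levels are CPM after TMM scaling, and each mean is given with its SD over n = 4 lines. Levels of different genes are not ranked against each other, since transcript lengths were not used here. In bulk RNA, fewer cells that express a gene and less RNA per cell cannot be told apart.

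APOA1, at bases 27490619 to 27505478 of chromosome 15 (ARS-UCD2.0), was the only member called as changed, and in 4 of 4 lines its feeder-free level was the higher one. On MEF it had 59.2 CPM in line A, 53.7 in line C, 44.8 in line D and 97.6 in line E. In feeder-free conditions it had 125 CPM in line A, 186 in line C, 234 in line D and 193 in line E. The lowest feeder-free library lay above the highest library on MEF, so the conditions did not overlap. The mean was 63.8 ± 23.3 CPM on MEF and 185 ± 45.1 CPM in feeder-free conditions. This was 2.89-fold, or 1.53 on the log2 scale with a standard error of 0.27. The lines did not keep their order: line D was lowest on MEF and highest in feeder-free conditions, and line E was highest on MEF. The feeder-free level over the MEF level of the same line was 5.23-fold in line D, 3.46-fold in line C, 2.11-fold in line A and 1.98-fold in line E. With 1 library per line and condition, whether the lines differ in this response could not be tested. Line D in feeder-free conditions was also the deepest library, and without it the log2 fold change of APOA1 was 1.40. A gene was called where its adjusted P-value from edgeR's quasi-likelihood fit lay under 0.05 and it differed by 1.5-fold or more. Of the 15741 genes tested, 1.72% were called in all, 0.724% as higher and 0.997% as lower. Non-overlapping conditions with the feeder-free side higher were seen for 6.21% of genes, and with it lower for 8.36%, while 20.3% were higher in all 4 lines. Since APOA1 chose the group, nothing is read from its call. When single libraries were left out, the call held only where that library was line A in feeder-free conditions. Each of the other such fits called at most 1 gene as higher and 5 as lower, so losing the call was not particular to APOA1. In the fit paired by line (replicate block), leaving out 1 library gave log2 fold changes of 1.28 to 1.77 for APOA1. There, leaving out either library of a line takes that line out of the comparison, so the 8 fits are in effect 4 cases.

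**Figure D1:**
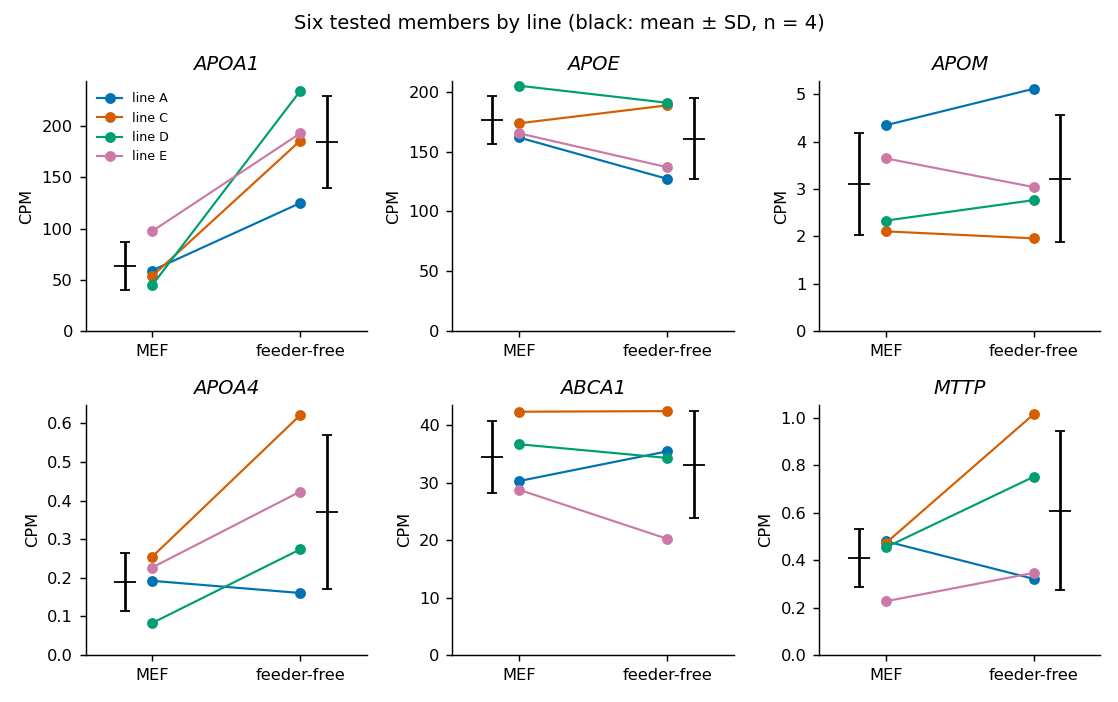
CPM (linear axes from 0) of the 6 members that passed the filter on low counts, on MEF and in feeder-free conditions, with 1 coloured line per bESC line and the mean ± SD (n = 4) in black. APOA1 separates the conditions, from 44.8 to 97.6 CPM on MEF and from 125 to 234 CPM in feeder-free conditions, while the other members overlap.

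The apolipoprotein genes next to APOA1 on the chromosome had few counts. APOA4 was tested and was not called, while APOC3 and APOA5 did not pass the filter on low counts. APOA4, an intestinal apolipoprotein whose annotated span overlaps APOA1 by 287 bases, had 4 to 14 counts per library on MEF and 8 to 33 in feeder-free conditions. Its CPM was 0.19, 0.25, 0.083 and 0.23 on MEF for lines A, C, D and E and 0.16, 0.62, 0.27 and 0.42 in feeder-free conditions, so that lines C, D and E were higher and line A was lower. The log2 fold change was 0.96 (standard error 0.57, 95% interval -0.32 to 2.23, edgeR adjusted p = 0.372) and did not pass. APOC3, which inhibits clearance of triglyceride-rich particles and lies inside the span of APOA4, had 2 counts in the feeder-free library of line D and 0 in the other 7 libraries. APOA5, further along the same cluster, had 2 to 16 counts on MEF and 4 to 10 in feeder-free conditions. APOA1 also spans LOC107133155, which had 2 to 10 counts on MEF and 14 to 40 in feeder-free conditions. The strand used in counting is not given in the sources used here, so reads of overlapping genes cannot be assigned with certainty.

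APOE and APOM were detected in every library and were not called. APOE carries lipids between cells, and it lies on chromosome 18 from 52637880 to 52640577. It had 162, 174, 205 and 165 CPM on MEF in lines A, C, D and E, and 127, 189, 191 and 137 CPM in feeder-free conditions. The ranges overlapped, with only line C higher in feeder-free conditions. The mean was 176 ± 19.7 CPM on MEF and 161 ± 33.5 CPM in feeder-free conditions, and the log2 fold change of -0.13 (standard error 0.16, 95% interval -0.50 to 0.24) did not pass, with edgeR adjusted p = 0.701. APOM, which carries sphingosine 1-phosphate on high-density lipoprotein, had 4.35, 2.11, 2.33 and 3.65 CPM on MEF and 5.12, 1.96, 2.77 and 3.04 CPM in feeder-free conditions. Line A was highest and line C lowest in both conditions. Its log2 fold change was 0.05 (standard error 0.37, 95% interval -0.77 to 0.88, edgeR adjusted p = 0.959). APOM, on chromosome 23, shares 2723 of its 4941 annotated bases with BAG6, which had a mean of 521 CPM on MEF and 440 CPM in feeder-free conditions, so the APOM counts are less certain.

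ABCA1, the exporter that hands cholesterol to APOA1, was detected in every library and was not called. It lies on chromosome 8 from 94600618 to 94737849 and overlaps no other annotated gene. On MEF it had 30.3 CPM in line A, 42.4 in line C, 36.7 in line D and 28.8 in line E. In feeder-free conditions the values were 35.5, 42.5, 34.3 and 20.2 CPM for the same lines. Line C was highest and line E lowest in both conditions, and the conditions overlapped. The mean was 34.5 ± 6.25 CPM on MEF and 33.1 ± 9.32 CPM in feeder-free conditions, with a log2 fold change of -0.06 (standard error 0.22, 95% interval -0.57 to 0.45, edgeR adjusted p = 0.917). ABCG1, on chromosome 1, was near the limit of detection, with 6, 12, 2 and 18 counts on MEF in lines A, C, D and E and 4, 2, 20 and 4 counts in feeder-free conditions, and it did not pass the filter on low counts. MTTP, on chromosome 6 from 25005876 to 25062589, had 20, 26, 22 and 10 counts on MEF and 16, 54, 77 and 18 in feeder-free conditions. As CPM it was higher in lines C, D and E and lower in line A, and the log2 difference of 0.58 (standard error 0.50, 95% interval -0.54 to 1.70) did not pass, with edgeR adjusted p = 0.556.

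**Figure D2:**
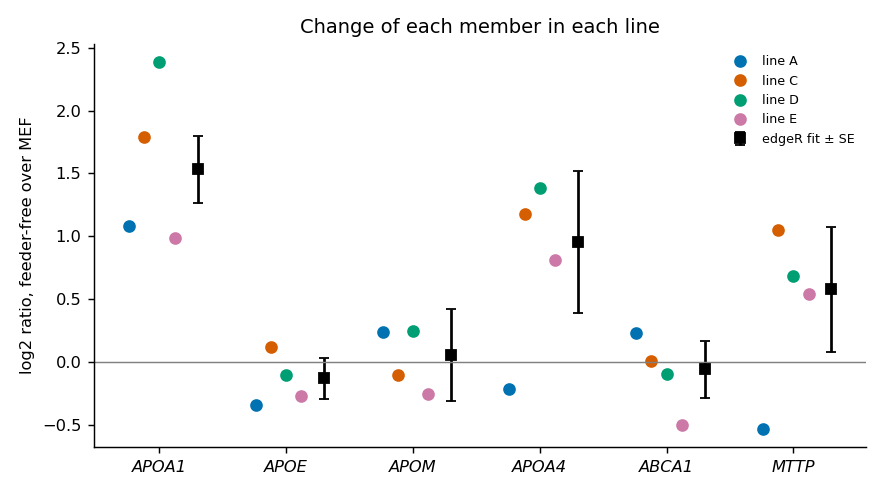
Log2 ratio of feeder-free over MEF for the 6 tested members, with 1 coloured point per line and the edgeR log2 fold change ± standard error as a black square. All 4 points of APOA1 lie between 0.98 and 2.39, whereas those of APOE, APOM, APOA4, ABCA1 and MTTP fall on both sides of 0.

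The remaining members were at or near 0. APOB had 0 counts in 8 of 8 libraries, which allows at most 0.0293 to 0.0678 CPM per library, taking 3 counts as the limit for a count of 0. These CPM limits use total counts without TMM scaling. TTR had 2 counts in the feeder-free library of line C and 0 in the other 7. APOA2, a second protein of high-density lipoprotein, had 7 counts in the feeder-free library of line A, 1 in that of line E and 0 in the other 6. APOB lies on chromosome 11, TTR on chromosome 24 and APOA2 on chromosome 3. No fold is given for these 3 genes or for ABCG1. The limits for APOB cover counting error only. They take counts as independent and would be higher if both reads of a pair were counted.

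**Figure D3:**
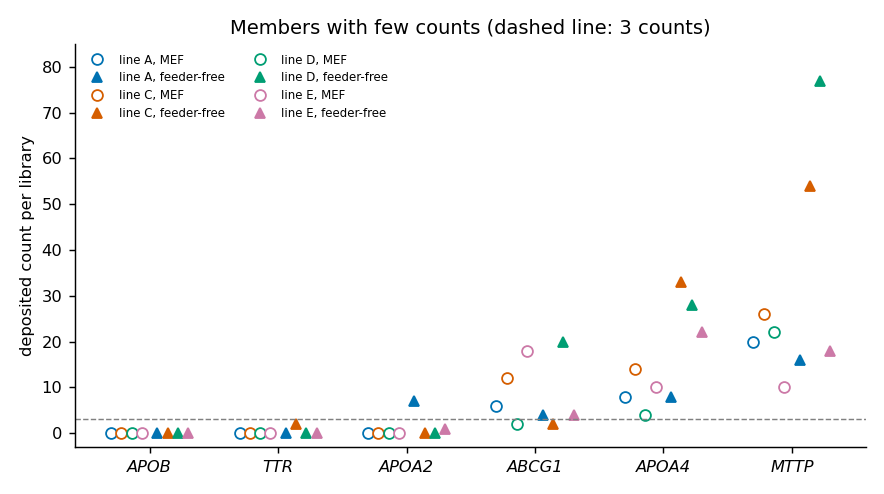
Deposited counts per library, not scaled for depth, of the 6 members with few counts, with open circles for MEF, filled triangles for feeder-free conditions and a dashed line at 3 counts. APOB is at 0 in all 8 libraries, TTR and APOA2 are at 0 in all but 1 and 2 libraries, and the largest value of MTTP, 77, is in the deepest library.

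Of the 9 members other than APOA1, 5 passed the filter and 0 were called by edgeR, with 0 at an unadjusted P-value under 0.05, where 21.6% of all genes were. DESeq2 called 0 of the 4 to which it gave an adjusted P-value, APOA4 having none, and 8.37% of all genes with one. The replicate block called 10.1% of all genes (5.53% higher and 4.53% lower) and again 0 of these 5. The median log2 fold change of these 5 was 0.05, beside 0.01 over all genes tested.

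Differences between the lines, which played no part in choosing the genes, were tested in the fit on condition and line. Of the 6 members, 0 were called by edgeR's F test at an adjusted P-value under 0.05, where 11.9% of all genes were, while 3 had an unadjusted P-value under 0.05, as had 29.2% of all genes. These 3 were ABCA1, with a 1.73-fold span of line means and edgeR adjusted p = 0.0922, APOM, with a 2.33-fold span and edgeR adjusted p = 0.112, and APOE, with a 1.37-fold span and edgeR adjusted p = 0.168. DESeq2's likelihood ratio test, which called 24.7% of all genes, called ABCA1 and APOM. For APOA1 the same test between lines gave an edgeR adjusted p of 0.370.

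The wider set of lipoprotein and lipid transport genes, their regulators, and genes related to TTR held 106 genes, of which 102 were in the table and 72 passed the filter. Of these, 2 were called, 1 in each direction, beside 1.72% of all genes. Both came from the list drawn up around TTR, retinol and thyroxine. The median over the 72 was 0.15 on the log2 scale. With the replicate block 10 were called, 6 as higher and 4 as lower, beside 10.1% of all genes. STRA6, the membrane receptor that takes up retinol from its plasma carrier RBP4, rose from 23.6 ± 8.04 CPM to 98.3 ± 38.9 CPM, a log2 fold change of 2.06 (edgeR adjusted p = 0.0331). THRA, a nuclear receptor for thyroid hormone, fell from 29.98 ± 5.83 CPM to 11.6 ± 3.75 CPM, a log2 fold change of -1.37 (edgeR adjusted p = 0.0392). Both moved the same way in 4 of 4 lines and their conditions did not overlap, as for 14.6% of all genes. Of the 8 fits with a library left out, only the one without line A in feeder-free conditions kept these calls. Each of the others called at most 1 gene as higher and 5 as lower over all genes tested. RBP4, the retinol carrier that travels with TTR in plasma, had 201 ± 25.3 CPM on MEF and 237 ± 10.9 CPM in feeder-free conditions (log2 fold change 0.24, edgeR adjusted p = 0.291), while its partner TTR was at or near 0.

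Among the other apolipoproteins, 1 of the 8 in the table passed the filter, and it was not called without pairing. CLU, also called apolipoprotein J, had 111 ± 12.7 CPM on MEF and 195 ± 78.2 CPM in feeder-free conditions (log2 fold change 0.82, edgeR adjusted p = 0.128), and was called as higher with the replicate block. APOD, a small lipocalin, had 0 to 29 counts per library, and APOC1 was not analysed here. Of 13 lipoprotein receptors tested, 0 were called and 3 had an unadjusted P-value under 0.05, which here and below is to be read against the 21.6% of all genes. SCARB1, the receptor for high-density lipoprotein, and LRP2, an endocytic receptor, had log2 fold changes of 0.22 and -0.56. VLDLR had a log2 fold change of -0.84 (edgeR adjusted p = 0.123) and was called as lower with the replicate block, the 1 receptor so called. Calls with the replicate block, here and below, are to be read against the 10.1% of all genes. Of 16 genes of lipoprotein assembly and remodelling, 0 were called and 2 had an unadjusted P-value under 0.05. With the replicate block 1 was called as higher, ACAT2, an acetyl-CoA acetyltransferase, at 0.60. Among the others, LCAT, which esterifies cholesterol on particles that carry APOA1, and PLTP, which transfers phospholipid between particles, had log2 fold changes of 0.40 and -0.01. Of 12 other lipid transporters 0 were called, with 1 at an unadjusted P-value under 0.05.

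Regulators of these genes were described in the same way. NR1H3 and NR1H2 encode the liver X receptors, which sense oxysterols and raise ABCA1 and ABCG1. They had log2 fold changes of 0.54 and 0.22 (edgeR adjusted p = 0.173 and 0.492). Of the 9 tested targets of these receptors outside the group, 0 were called without pairing and 3 had an unadjusted P-value under 0.05. With the replicate block, which called 10.1% of all genes, 2 were called as higher, LPCAT3 and SREBF1, at 0.78 and 0.60. Of 19 lipid sensing and hepatic transcription factors tested, 0 were called and 9 had an unadjusted P-value under 0.05. The replicate block called 10.1% of all genes. Of these 19 it called 2 as higher, EGR1 at 1.47 and SREBF1, and 2 as lower, PPARGC1A at -1.50 and NR2F2. These genes were named after their values were seen. HNF4A, a liver factor that activates apolipoprotein genes, had 1.00 ± 0.999 CPM on MEF and 0.685 ± 0.379 CPM in feeder-free conditions (edgeR adjusted p = 0.730). FOXA2, a factor of endoderm and liver, had a log2 fold change of -0.93 (edgeR adjusted p = 0.231). NR2F2 is a repressor known to bind the APOA1 promoter. It had 24, 180, 196 and 17 counts on MEF and 0, 0, 8 and 6 in feeder-free conditions. This was a log2 fold change of -5.29 that did not pass (edgeR adjusted p = 0.0508) and that passed with the replicate block. Of the 17 fibroblast markers tested, 11 were on the positive side and 6 on the negative side, and their median log2 fold change was 0.49. With the replicate block COL3A1 and POSTN were called as higher and COL1A2 and PRRX1 as lower, beside 10.1% of all genes. Whether NR2F2 bears on the APOA1 level in these cells was not tested, nor was the part of fibroblast RNA in the NR2F2 values.

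**Figure D4:**
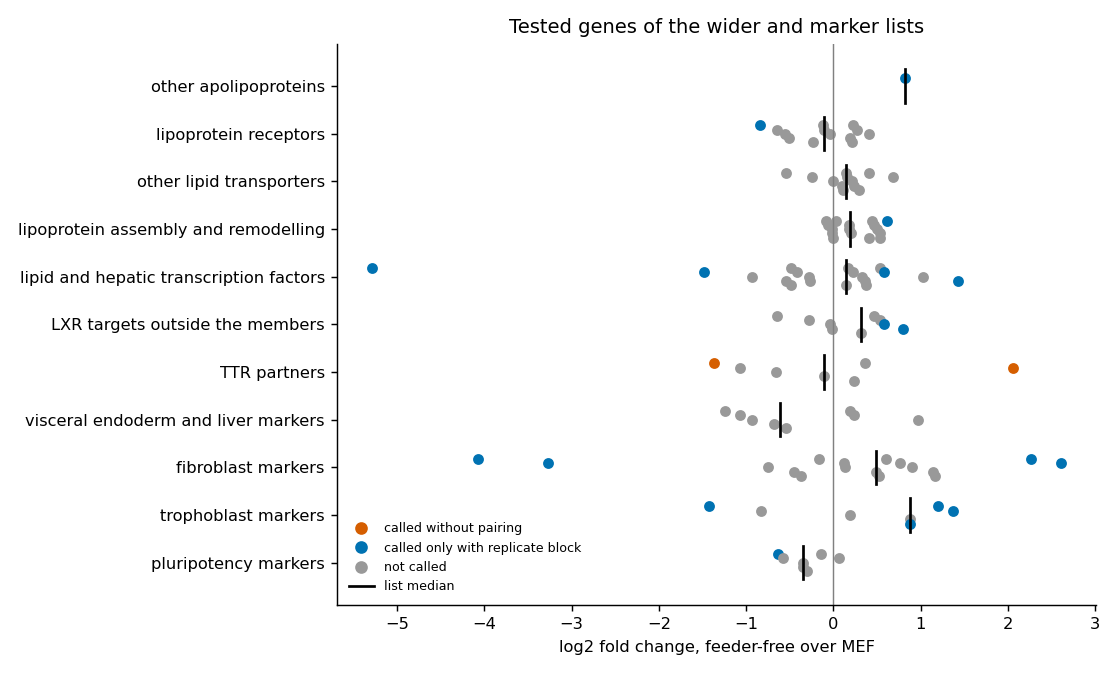
Log2 fold change (feeder-free over MEF) of every tested gene of the wider lists and the marker lists, the 10 members left out, with black bars for list medians. STRA6 and THRA, at 2.06 and -1.37, are the only genes called without pairing (orange), and genes called with the replicate block alone are blue.

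Markers of other cell types were examined beside APOA1. Of 21 visceral endoderm and liver markers, 8 passed the filter and 0 were called by edgeR, by DESeq2 or with the replicate block, with 2 at an unadjusted P-value under 0.05 and a median log2 fold change of -0.61. These 8 were detected and did not move together: 3 rose and 5 fell, with log2 fold changes from -1.24 to 0.97. Among the markers that did not pass, AFP, SERPINA1 and FGA, defining products of this lineage, had 0 counts in all 8 libraries. SOX17, GATA4 and GATA6 reached at most 12, 2 and 36 counts in any library. The list summed to 207 to 257 CPM on MEF and 247 to 290 CPM in feeder-free conditions, and RBP4 made up most of it. Of 17 fibroblast markers tested, 0 were called and 4 had an unadjusted P-value under 0.05, and the list of 19 summed to 1103 to 1513 CPM on MEF and 809 to 2480 CPM in feeder-free conditions. Of 7 trophoblast markers tested, 0 were called, 4 had an unadjusted P-value under 0.05 and CDX2 had 0 counts in all 8 libraries. This list summed to 690 to 1238 CPM on MEF and 755 to 3031 CPM in feeder-free conditions. Its median log2 fold change was 0.88, with 5 of the 7 above 0. With the replicate block KRT8, KRT18 and TEAD4 were called as higher and GATA2 as lower, beside 10.1% of all genes. The part of the fibroblast and trophoblast lists in the APOA1 level was not tested.

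The genes whose log2 CPM followed APOA1 most closely over the 8 libraries, among 13249 genes with at least 1 CPM on average, were SLC44A3 (Pearson's r = 0.990), PRELP (0.985), DIMT1 (0.984), PHACTR2 (0.975) and GFRA2 (0.974). The 8 points fall into the 2 conditions and share lines and depth, so these values are a description. APOA1 separates the conditions, so genes picked for following it tend to differ between them too. Their calls are therefore not given. GFRA2, a receptor for neurturin, had a log2 fold change of 2.42. Within the group, APOA1 had r = 0.70 with APOA4 and -0.23 with APOE.

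The genes around APOA1 were described after their values had been seen. Within 500 kb, 13 other annotated genes were tested, of which 8 lay above 0 and 5 below 0 on the log2 fold change scale. TAGLN, an actin-binding protein of smooth muscle that begins 384 kb beyond APOA1, was the 1 gene called, at 4.23. LOC104974207, a long non-coding RNA that begins 95 bases beyond APOA1, had 14 to 23 counts on MEF and 30 to 251 in feeder-free conditions (log2 fold change 1.94). With the replicate block LOC104974207 was called as higher, together with SIDT2 and TAGLN, beside 10.1% of all genes. SIDT2 had a log2 ratio of 0.32 in line A and 1.16 to 1.56 in the other lines, and its conditions overlapped as well. SIK3, which lies between APOA1 and both SIDT2 and TAGLN, had a log2 fold change of 0.13, and BUD13 and ZPR1 on the other side had -0.20 and 0.22.

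**Figure D5:**
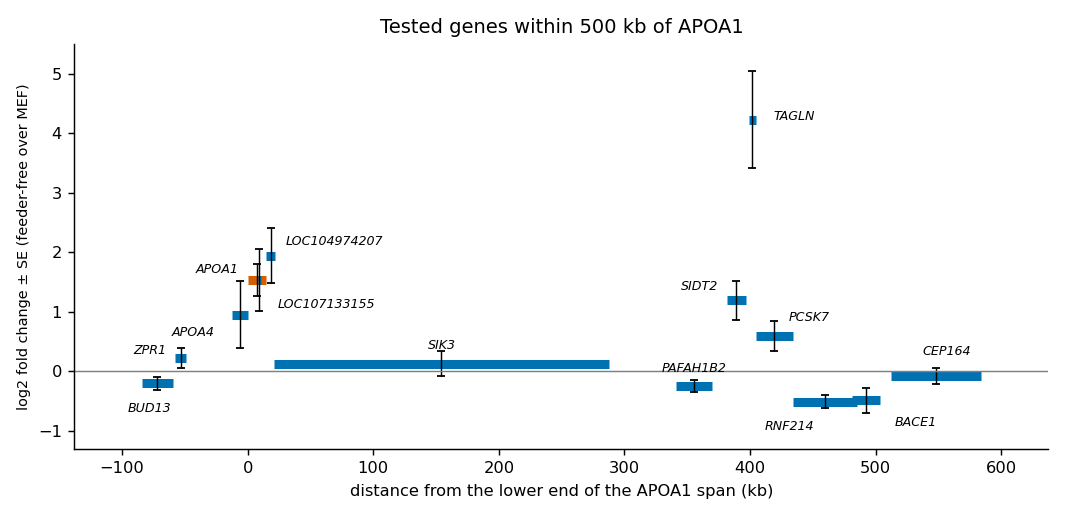
Log2 fold change ± standard error of the tested genes within 500 kb of APOA1, drawn as bars over each gene's annotated span against the distance in kb from the lower end of APOA1 (orange). APOA1, LOC107133155 and LOC104974207 lie between 1.53 and 1.94, SIK3 lies near 0, and TAGLN stands highest at 4.23. LOC107133155 and LOC104974207 were not called without pairing. LOC107133155 lies inside the APOA1 span and LOC104974207 overlaps SIK3, so their reads cannot be assigned with certainty.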

How the data were processed

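The values deposited by the authors were raw counts per gene in 8 libraries. Trimmomatic served for trimming, STAR for alignment to ARS-UCD2.0, Picard to drop optical duplicates, samtools to drop poorly mapped reads, and featureCounts (Subread 1.6.2) for counting. Bovine-aligned reads seen in MEF sequenced alone were subtracted from the libraries grown on MEF, per the methods. Strand, and whether reads or pairs were counted, are not given in the sources used here. Of the 30284 values from 1 to 12 counts, 72.8% were even.

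Of 32640 rows, 3 without values and 3 that name no gene were left out. The latter held at most 0.0229% of a library. No 2 libraries of a condition were alike (smallest chi-square per degree of freedom 43.7 over 12 pairs). RefSeq (ARS-UCD2.0) matched 30268 genes and all 10 members. Sequences were not used here.

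Counts were tested with edgeR 4.0.16 in R 4.3.3 (filterByExpr, TMM, glmQLFit and glmQLFTest) with condition as the only term and Benjamini-Hochberg adjustment across the 15741 genes kept. Calls needed an adjusted P-value below 0.05 and a 1.5-fold difference. Log2 CPM used a prior count of 2. Standard errors and intervals were derived from the fold change and its F statistic. The same lines were used in both conditions. After centring each condition, both libraries of 1 line correlated at 0.427 to 0.664 and libraries of different lines at -0.525 to 0.250, so line pairs the libraries, and a second fit added line (replicate block). Line differences were tested in that fit.

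The members and lists were chosen with earlier results of these data known. Named genes were the members, every called gene of the lists, a fixed set of list genes, and the 5 genes most like APOA1. A single list gene is not reported here. The alternatives tried were RLE factors, library size alone, a looser and a stricter filter, DESeq2 1.42.0, the replicate block, no fold threshold and each library left out in turn. The fits were checked on simulated counts.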

Additional observations from a re-analysis of the deposited data

Results flagged for a closer look

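A library stood far from the other 3 in 3 of the 36 sets of 4 that were checked, where chance gives about 1.8. The MEF library of line E had the lowest log2 CPM of MTTP, -1.93, against -1.03 to -0.95 in the other MEF libraries, on 10 counts. Line D in feeder-free conditions totalled 102347485 counts, whereas the other feeder-free totals were at most 51316434. The same library had the highest summed level of visceral endoderm and liver markers, 290 CPM, against 247 to 253 CPM.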

How the results depend on the processing

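APOA1 was the only member called in any setting (DESeq2 gave APOA4 no adjusted P-value), and it was called in all settings except that with single libraries left out 0 to 1 members were called, the 1 being APOA1 without line A in feeder-free conditions. In each of these fits 1 member, and from 2594 to 3756 genes, had an unadjusted P-value under 0.05. In the paired fit (replicate block) the log2 fold change of APOA1 was 1.56. As APOA1 chose the group, nothing is read from its calls. Genes called as higher and lower numbered 114 and 157 in the fit reported, 871 and 713 with the replicate block, 695 and 517 with DESeq2, and 73 and 97 without a filter. At least 10 counts in every library gave 198 higher, and library size alone gave 91 lower. Leaving out 1 library gave 0 to 261 higher and 0 to 231 lower. The 261 and 231 came without line A in feeder-free conditions, and each of the other such fits gave at most 1 higher and 5 lower. Of the wider lipid genes, 2 were called in the fit reported, 10 with the replicate block, 10 with DESeq2, 4 with at least 10 counts in every library, and 0 to 5 without 1 library. Between lines, 0 members were called in the fit reported, 1 (ABCA1) without a filter, 2 (ABCA1 and APOM) with DESeq2, and 0 to 1 without 1 library, the 1 being ABCA1 without the MEF library of line E. No endoderm marker was called by edgeR or DESeq2 in any setting, with 2 at an unadjusted P-value under 0.05 in the fit reported. The sign of APOM and ABCA1, both near 0, depended on single libraries: leaving out each in turn gave log2 fold changes of -0.26 to 0.26 for APOM and -0.20 to 0.13 for ABCA1. The replicate block changed no call of a member. The filters change how many genes are tested and a left-out library lowers n. The cause was not tested for DESeq2, library size alone or the block. APOA2, APOB, ABCG1 and TTR lie too low for any comparison at this depth.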
